A study of Homo sapiens with 4 samples.

Results

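The transcripts of 10 tetraspanin genes, TSPAN4, TSPAN6, TSPAN9, TSPAN14, TSPAN15, CD9, CD63, CD81, CD82 and CD151, were followed in MHCC-97H cells, an established metastatic hepatocellular carcinoma (HCC) line. The genes were taken by name from the 58735 genes of the deposited tables, as a list of tetraspanins of migrasomes and exosomes. Not all of the 10 are markers of these vesicles, and the list was chosen with earlier results of these data known. All 10 passed the filter of at least 10 reads in at least 1 library. All recipient cells were labelled as wild type of the same line and were sampled at 24 h. They received PBS, 2 µg of migrasomes (Migs) from normoxic MHCC-97H cells (normo-Migs), 2 µg of Migs from hypoxic MHCC-97H cells (hypo-Migs), or 2 µg of Migs from hypoxic MHCC-97H cells in which CD147 was knocked out (CD147KO-Migs). Each condition had 1 library, all labelled as the same batch, so no condition could be tested against the spread between replicates. The values below compare libraries, and their 95% intervals cover counting error only.

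Tetraspanins are small proteins that span the membrane several times and gather integrins, proteases and immunoglobulin-superfamily proteins into membrane domains. Migrasomes are large vesicles that form on the retraction fibres behind a migrating cell, and TSPAN4 accumulates in their membrane and drives their growth. CD63, CD9 and CD81 are the usual markers of exosomes, CD63 in late endosomes and CD9 and CD81 also at the plasma membrane. CD151 binds laminin-receptor integrins, CD82 restrains the motility of tumour cells, and TSPAN14 and TSPAN15 escort the protease ADAM10 to the cell surface. TSPAN6 has been linked to syntenin and exosome release, and TSPAN9 is a close relative of TSPAN4. The RNA came from the recipient cells, so a transcript level here is no measure of the protein on the vesicles that were given.

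In hg38 coordinates, 4 of the 10 genes lie on chromosome 11, and CD151 (832843 to 839831) and TSPAN4 (842808 to 867116) are close together there on the plus strand. CD81 spans 2376177 to 2397419 and CD82 spans 44564427 to 44620363 on the same chromosome and strand. Chromosome 12 holds TSPAN9 (3077355 to 3286564, plus strand), CD9 (6199715 to 6238271, plus strand) and CD63 (55725323 to 55729707, minus strand). Chromosome 10 holds TSPAN15 (69451473 to 69507669) and TSPAN14 (80454166 to 80533123), both on the plus strand, and TSPAN6 lies on the minus strand of chromosome X (100627109 to 100639991). The handling of strand in counting is not given in the sources used here, so reads of overlapping genes on opposite strands may not have been separated. POLR2L overlaps CD151 over 2476 bases and had between 2326 and 2729 reads. The antisense gene AP006623.1 lies within TSPAN4 over 2916 bases and had 112 to 222 reads, against 2061 to 3359 for TSPAN4.

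RefSeq promoters, from 250 bases before to 50 after a transcription start, were listed for 7 of the 10 genes, without an entry for CD81, CD151 and TSPAN9. Those of TSPAN4, CD82 and TSPAN15 are shown because TSPAN4 lay farthest below the PBS library, and CD82 and TSPAN15 farthest above it. They are the most upstream starts listed in GRCh38.p14, on the plus strand, and the counts per gene do not say which start was used. Capitals mark the GC box GGGCGG, or its complement CCGCCC.
TSPAN4, chr11:842602-842901: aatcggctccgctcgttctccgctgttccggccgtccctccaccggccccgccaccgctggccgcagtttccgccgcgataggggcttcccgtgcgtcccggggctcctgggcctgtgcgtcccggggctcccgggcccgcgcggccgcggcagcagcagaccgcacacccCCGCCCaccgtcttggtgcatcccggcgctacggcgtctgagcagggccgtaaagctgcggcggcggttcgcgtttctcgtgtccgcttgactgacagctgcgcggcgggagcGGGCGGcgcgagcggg
CD82, chr11:44565413-44565712: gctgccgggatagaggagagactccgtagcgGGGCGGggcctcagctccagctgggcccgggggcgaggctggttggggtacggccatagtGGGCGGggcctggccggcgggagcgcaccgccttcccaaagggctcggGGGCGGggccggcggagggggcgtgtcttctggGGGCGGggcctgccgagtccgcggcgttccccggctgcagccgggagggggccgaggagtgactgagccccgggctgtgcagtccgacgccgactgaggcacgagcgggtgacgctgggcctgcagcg
TSPAN15, chr10:69451215-69451514: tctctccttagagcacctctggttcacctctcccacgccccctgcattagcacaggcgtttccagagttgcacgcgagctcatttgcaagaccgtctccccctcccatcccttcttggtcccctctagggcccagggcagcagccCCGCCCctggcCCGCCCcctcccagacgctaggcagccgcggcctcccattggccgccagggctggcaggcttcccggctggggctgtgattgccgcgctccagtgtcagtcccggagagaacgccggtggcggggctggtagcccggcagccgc
The TSPAN4 window held 2 GC boxes, that of CD82 held 4 and that of TSPAN15 held 2, and 44.5% of all 27305 promoters listed held at least 1. Their GC contents were 75.3%, 76.7% and 69.0%, against a median of 58.3% over all promoters. The core of the hypoxia response element, ACGTG or GCGTG on either strand, was found at no position in the TSPAN4 window, at 1 in that of CD82 and at 2 in that of TSPAN15, and it occurred in 48.4% of all promoters. The E-box CANNTG, the pattern read by TWIST1 and many related factors, occurred at 1 position in each of these windows and in 69.0% of all promoters. These matches are descriptions of the letters only.

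The libraries held 33882496 to 40285223 reads on genes. The PBS library stood apart: its Pearson correlation with the Mig libraries, across genes, was 0.894 to 0.896, against 0.984 to 0.985 among the Mig libraries, and 251 genes with at least 100 reads in every Mig library had 3 or fewer in PBS. Mitochondrial rRNA made up 0.15% of its reads, against 1.34% to 1.47% in the others. ALB, APOB, TTR, AFP and GPC3, defining markers of hepatocytes or HCC, were at 0 reads in every library, whereas KRT8 and KRT18 were abundant. Of 8 fibroblast markers, 5 were past 2-fold higher in every Mig library (COL1A1, PDGFRB, DCN, LUM and THY1), their list summing to 2.51 FPKM in PBS and 26.6 to 28.5 FPKM in the Mig libraries, while PDGFRA and COL1A2 had 2 or fewer reads throughout and COL3A1 had 27 reads in PBS and 14, 27 and 20 in the Mig libraries. The 7 leukocyte markers used summed to 0.411 FPKM in PBS and 1.76 to 2.13 FPKM in the Mig libraries. CD14 had 14 reads in PBS and 47, 78 and 86 in the Mig libraries, and CSF1R had 18 and 174, 161 and 123. CD3E was at 0 throughout, PTPRC had 2 or fewer reads, and LYZ, CD68 and ITGAM had 8 or fewer. Endothelial markers summed to 0.545 FPKM in PBS and 0.594 to 0.811 FPKM in the Mig libraries, but moved apart. PECAM1 had 16 reads in PBS and 118, 146 and 131 in the Mig libraries, CDH5 had 84 and 30, 72 and 59, TEK had 11 and 0, 3 and 0, ERG had 0 and 2, 10 and 12, and VWF and KDR had 7 or fewer throughout. Whether these differences have a part in the results against PBS was not tested, and in bulk RNA fewer cells of a type and less RNA per cell cannot be told apart. Every comparison with PBS, those of CD82 and TSPAN4 included, rests on that 1 PBS library, so the treatment and any other difference between its cells and those of the other libraries cannot be told apart. For this reason the comparisons among the 3 Mig libraries are given after them. These do not subtract the PBS library, but it entered the TMM scaling and the filter on reads behind them.

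Per length, CD63 was the most abundant of the 10 in every library and CD151 came next. CD63 stood at 66.0 FPKM (fragments scaled by gene length and library size, by the authors) in PBS and at 106, 101 and 106 FPKM with normo-Migs, hypo-Migs and CD147KO-Migs. CD151 stood at 48.8 FPKM in PBS and at 46.8, 45.0 and 44.2 FPKM in the Mig libraries. At the other end were CD82, TSPAN9 and TSPAN14, all under 2.4 FPKM in PBS. The authors' gene length is that of all annotated exons together, from 2633 bases for CD63 to 17888 for TSPAN14, so a gene with long exons that these cells do not use is listed too low. Of the 36 pairs of neighbours in the order of FPKM over the 4 libraries, 31 differed beyond counting error. In PBS, TSPAN4 (16.6 FPKM) and CD9 (16.4 FPKM) did not (ratio 1.01, 95% interval 0.962 to 1.07), nor did TSPAN14 and TSPAN9 or TSPAN9 and CD82. CD9 and CD81 did not differ beyond it with normo-Migs (ratio 1.04, 0.996 to 1.08), nor did TSPAN15 and CD82 with hypo-Migs (ratio 1.05, 0.953 to 1.15). TSPAN4 held rank 4 in PBS and rank 6 in every Mig library, and CD82 held rank 10 in PBS and ranks 8, 8 and 7 in the Mig libraries.

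**Figure D1:**
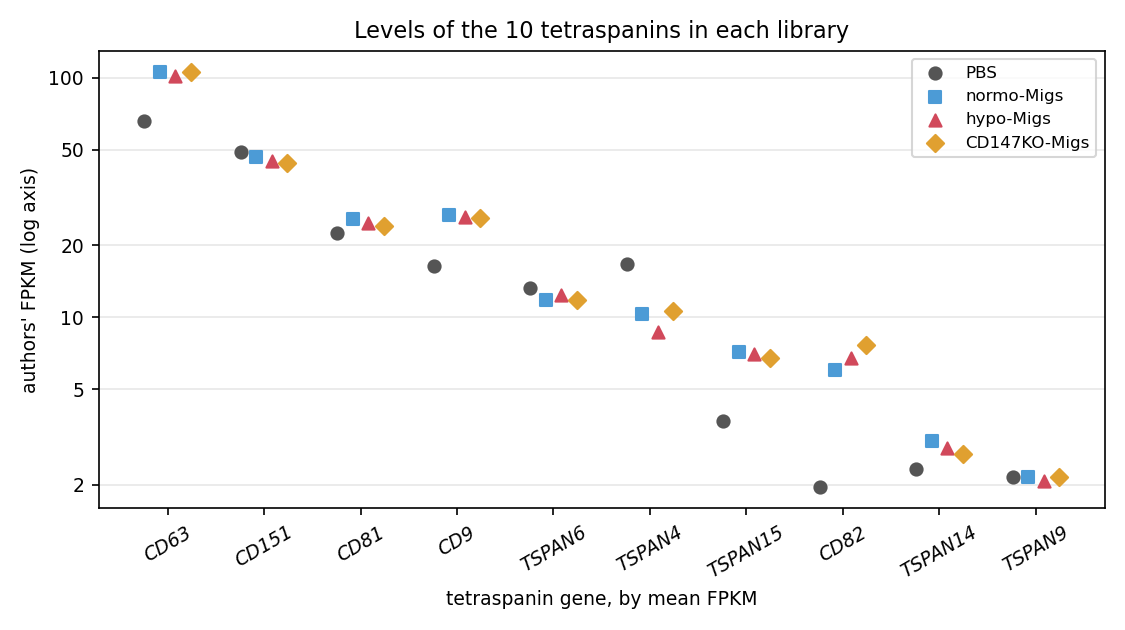
Authors' FPKM (vertical, log axis) of the 10 tetraspanins in each library, ordered by mean FPKM, with 1 point per library and no replicates. The Mig points of CD82, TSPAN15, CD9 and CD63 lie above the PBS point and those of TSPAN4 lie below it, while the points of TSPAN9 nearly coincide.

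Against PBS, 1 of the 10 genes, CD82, was at least 2-fold higher in each Mig library and none was 2-fold lower. Over all 19895 genes tested, 18.1%, 18.9% and 18.3% were 2-fold or more higher with normo-Migs, hypo-Migs and CD147KO-Migs, and 12.0%, 11.6% and 12.0% were 2-fold or more lower. Because the 10 genes are well covered, the share was also taken over the 9112 genes averaging 500 reads or more, a subset chosen after seeing the data, of which 12.0%, 12.5% and 12.5% were past 2-fold either way. The count of 1 in 10 is therefore near the background. The median log2 fold change of the 10 genes was 0.30, 0.22 and 0.17, against 0.03, 0.04 and 0.03 over all genes tested.

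TSPAN4, the tetraspanin of migrasomes, was the only one of the 10 below PBS by more than 0.5 on the log2 scale. It had 3359 reads in PBS and, in the order normo-Migs, hypo-Migs and CD147KO-Migs, 2066, 2061 and 2193, or 16.6, 10.3, 8.72 and 10.6 FPKM. The PBS library was the highest of the 4 on the FPKM scale and the hypo-Migs library the lowest. Its log2 fold change against PBS was -0.68 (95% interval -0.76 to -0.60) with normo-Migs, -0.92 (-1.002 to -0.843) with hypo-Migs and -0.64 (-0.71 to -0.56) with CD147KO-Migs. Differences from PBS at least as far from 0 were found in 23.9%, 14.7% and 27.4% of the 9112 well-covered genes. TSPAN9, its relative, had 514, 513, 580 and 527 reads in the same order of libraries, or 2.15, 2.16, 2.08 and 2.16 FPKM. All its intervals against PBS included 0, that of hypo-Migs reaching from -0.22 to 0.13.

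The exosome markers CD63 and CD9 were higher in all Mig libraries than in PBS. CD63 had 6006 reads in PBS and 9553, 10794 and 9879 in the Mig libraries, in the order above, and its log2 fold changes against PBS were 0.69 (0.64 to 0.74), 0.63 (0.58 to 0.67) and 0.70 (0.65 to 0.74). CD9 had 2362, 3810, 4405 and 3837 reads, or 16.4, 26.6, 26.1 and 26.1 FPKM, and its log2 fold changes were 0.71 (0.63 to 0.78), 0.68 (0.61 to 0.75) and 0.68 (0.60 to 0.75). CD63 and CD9 had the most alike profiles of any pair among the 10, with a Euclidean distance of 0.05 between their centred log2 values over the 4 libraries. CD81, a partner of CD9 on the cell surface, stood much nearer to PBS. It had 5765, 6520, 7391 and 6293 reads, or 22.5, 25.7, 24.7 and 24.1 FPKM, with log2 fold changes of 0.20, 0.14 and 0.11. Differences as far from PBS as those of CD63 were seen in 23.5% to 28.1% of the well-covered genes, and as those of CD9 in 22.4% to 24.6%.

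CD82, also known as the metastasis suppressor KAI1, lay farthest from PBS. It had 273 reads in PBS and 838, 1105 and 1094 in the normo-Migs, hypo-Migs and CD147KO-Migs libraries, or 1.95, 6.01, 6.73 and 7.63 FPKM. All 3 Mig libraries were thus above the PBS library, and the CD147KO-Migs library was the highest. Its log2 fold changes against PBS were 1.63 (1.44 to 1.84), 1.79 (1.61 to 2.00) and 1.97 (1.79 to 2.18), and differences as far from 0 were seen in 5.16%, 4.52% and 4.05% of the well-covered genes. With an assumed coefficient of variation of 0.4 between replicates, edgeR's exact test no longer called CD82, and the count of genes past 2-fold was 0 in each comparison with PBS. The nearest protein-coding genes on both sides of CD82 were also far from PBS. ALX4, a homeobox gene 5′ of CD82, had 4 reads in PBS and 839, 1104 and 1236 in the Mig libraries, and TSPAN18, another tetraspanin, on the 3′ side, had 0 reads in PBS and 352, 504 and 416 in the Mig libraries. Over all genes tested, 18.1%, 18.9% and 18.3% were 2-fold or more higher than PBS, and a change shared by this region was not tested. POLR2L and CHID1, on either side of TSPAN4, had log2 fold changes against PBS between -0.20 and 0.18. The distances are unlike. ALX4 ends at 44310166 and TSPAN18 starts at 44726465, far from CD82, whereas POLR2L ends at 842545 and CHID1 starts at 867860, close to TSPAN4. CRACR2B, before CD151, had -0.41, -1.01 and -0.30, and TSSC4, after CD81, had -0.41, -0.41 and -0.59, while TSPAN32, before CD81, had 2 or fewer reads in every library.

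The remaining 4 genes comprised 2 ADAM10 escorts and 2 genes close to their PBS levels. TSPAN15, which steers ADAM10 towards N-cadherin, had 338 reads in PBS and 652, 755 and 633 with normo-Migs, hypo-Migs and CD147KO-Migs, or 3.69, 7.17, 7.05 and 6.77 FPKM. Its log2 fold changes of 0.96 (0.77 to 1.16), 0.94 (0.75 to 1.13) and 0.88 (0.69 to 1.08) lay just short of 2-fold. TSPAN14, the other escort, had 1433, 1867, 2056 and 1705 reads, or 2.32, 3.04, 2.84 and 2.70 FPKM, and log2 fold changes of 0.40, 0.30 and 0.23. The 6 tetraspanins that regulate ADAM10, known as the TspanC8 group, summed to 20.6 FPKM in PBS and 27.3, 26.7 and 26.0 FPKM in the Mig libraries. The group did not move together. Beside TSPAN14 and TSPAN15, TSPAN33 stood at 2.01, 5.46, 5.78 and 5.01 FPKM, and TSPAN5 at 0, 0.349, 0.386 and 0.324 FPKM. TSPAN10 stood at 2.25, 1.23, 0.932 and 1.08 FPKM, and TSPAN17 at 10.4, 10.1, 9.70 and 10.1 FPKM. ADAM10 itself had 5881, 4860, 5756 and 4750 reads and log2 fold changes of -0.26, -0.25 and -0.33. CD151, the integrin-binding tetraspanin, had 6641, 6336, 7177 and 6157 reads and log2 fold changes of -0.05, -0.11 and -0.13. TSPAN6 had 2078, 1841, 2263 and 1890 reads, or 13.2, 11.8, 12.3 and 11.8 FPKM, and log2 fold changes of -0.16, -0.10 and -0.16. Both stayed within 0.2 of PBS on the log2 scale.

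**Figure D2:**
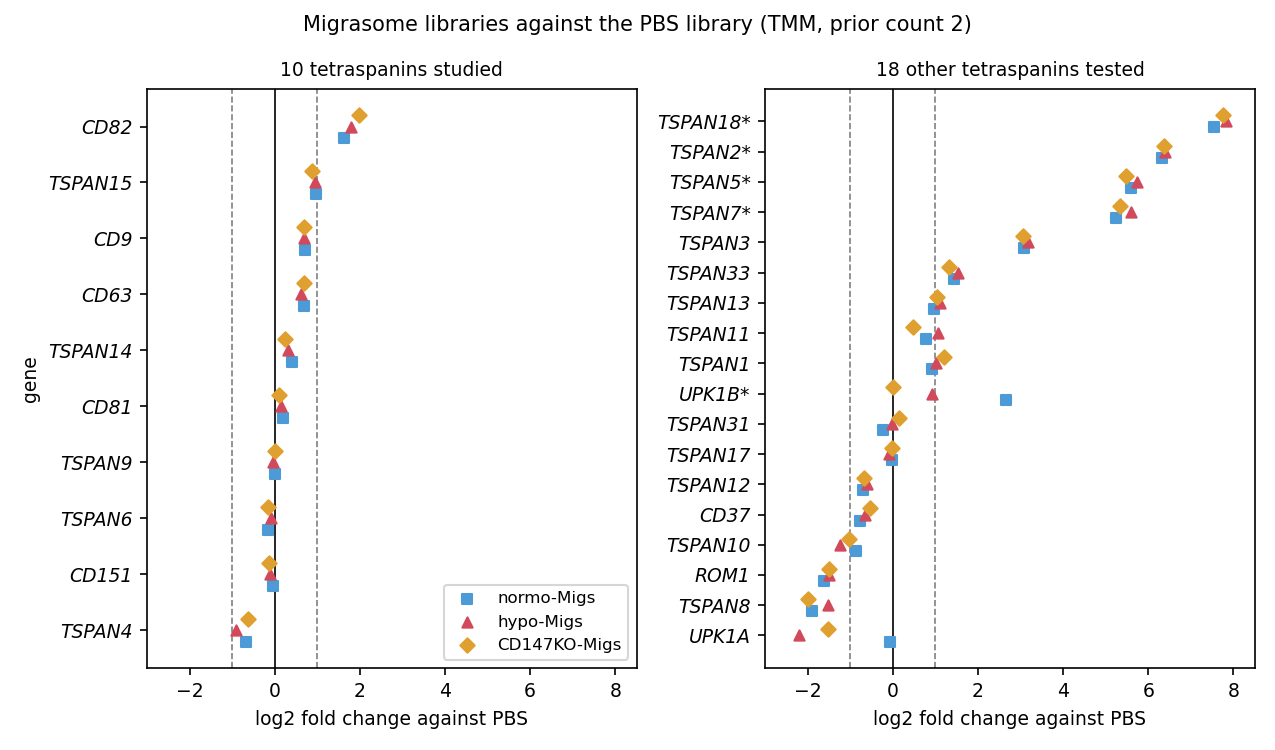
Log2 fold changes of each Mig library against the PBS library (horizontal) for the 10 genes (left) and the 18 other tetraspanins tested (right), 1 point per Mig library, with dashed lines at 2-fold. CD82 lies past 2-fold on the left, and asterisks mark genes with 3 or fewer reads in PBS, whose values depend on the prior count of 2.

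TSPAN4 was also set against the exosome markers within each library, on the scale of reads per base. In PBS, TSPAN4 stood at 0.252 (0.242 to 0.263) of CD63, and with normo-Migs, hypo-Migs and CD147KO-Migs at 0.0975 (0.0929 to 0.102), 0.0861 (0.0821 to 0.0902) and 0.100 (0.0955 to 0.105). Against CD81, which lay near its PBS level, the ratios were 0.738, 0.401, 0.353 and 0.441. The PBS library had the highest and the hypo-Migs library the lowest of both ratios, and the intervals of hypo-Migs overlapped those of no other library. CD82 against CD81 went the other way, at 0.0864 (0.0762 to 0.0975) in PBS and at 0.234 (0.218 to 0.252), 0.273 (0.256 to 0.290) and 0.317 (0.297 to 0.338) in the Mig libraries. These ratios need no scaling between libraries.

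**Figure D3:**
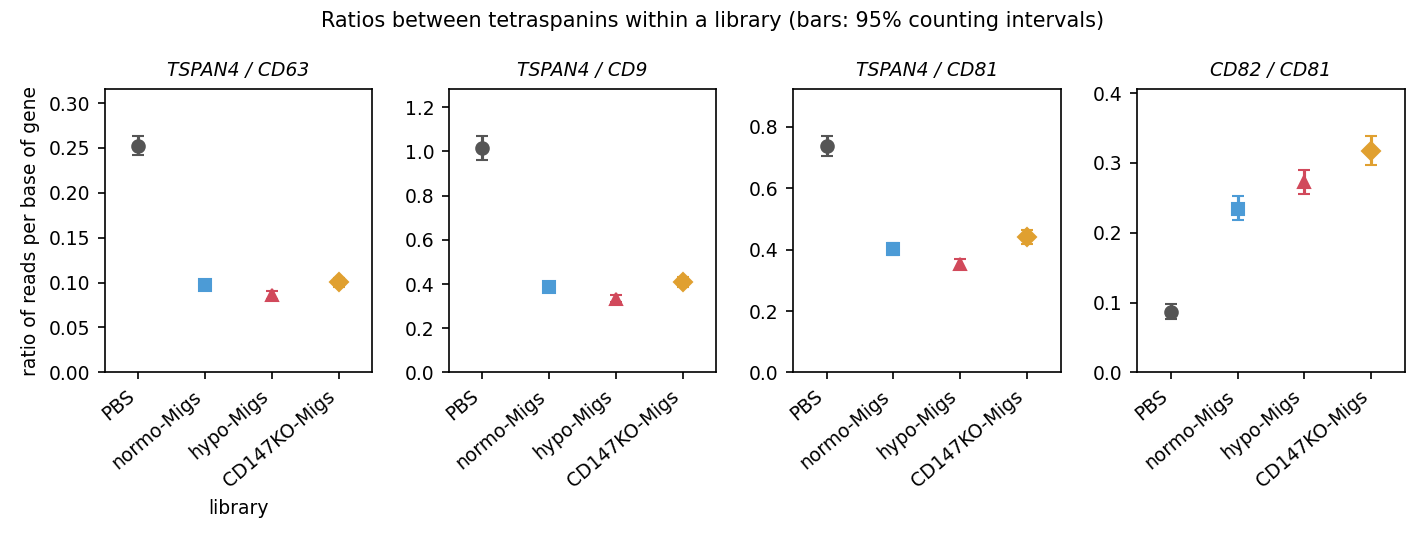
Ratios of reads per base of gene between tetraspanins within each library (vertical, linear axes from 0), with 95% counting intervals and no replicates. TSPAN4 against CD63, CD9 or CD81 is highest in PBS and lowest with hypo-Migs, and CD82 against CD81 is lowest in PBS and highest with CD147KO-Migs.

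Among the Mig libraries, none of the 10 genes differed by 2-fold, for hypo-Migs against normo-Migs, hypo-Migs against CD147KO-Migs or normo-Migs against CD147KO-Migs, where 9.34%, 9.12% and 9.69% of all genes tested did. The counting interval left out 0 for 6, 3 and 4 of the 10 genes, where it did so for 34.9%, 35.0% and 34.5% of all genes tested. The 6 became 3 when libraries were scaled by their total of reads in place of TMM. The first pair of comparisons share the hypo-Migs library. The shares over all genes tested include genes with few reads, so they are no like-for-like background for the 10 well-covered genes. Over the 9112 well-covered genes, the median size of the log2 difference was 0.076, 0.073 and 0.08 in the 3 comparisons. For the 10 genes it was 0.06, 0.061 and 0.064.

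TSPAN4 was lower with hypo-Migs than with either of the others. Its log2 difference was -0.24 (-0.33 to -0.15) from normo-Migs and -0.29 (-0.37 to -0.20) from CD147KO-Migs, whereas normo-Migs and CD147KO-Migs differed by -0.05 (-0.13 to 0.04). Differences as far from 0 were seen in 5.64% and 3.04% of the well-covered genes for the comparisons with hypo-Migs. The 3 protein-coding genes with profiles nearest to that of TSPAN4 over the 4 libraries, of 12186 candidates, were CTXN1, SMAD1 and LACTB2, with Euclidean distances of 0.015, 0.0278 and 0.0409. The nearest tetraspanin, CD37, came at rank 661.

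CD82 was ordered differently, lowest with normo-Migs and highest with CD147KO-Migs. Its log2 difference was 0.16 (0.03 to 0.29) for hypo-Migs against normo-Migs, -0.18 (-0.30 to -0.06) for hypo-Migs against CD147KO-Migs and -0.34 (-0.48 to -0.21) for normo-Migs against CD147KO-Migs. Differences as far from 0 were seen in 17.2%, 12.6% and 2.23% of the well-covered genes. CD63 was lower with hypo-Migs by small margins, at -0.06 (-0.10 to -0.02) from normo-Migs and -0.07 (-0.11 to -0.03) from CD147KO-Migs, and 58.9% and 52.4% of well-covered genes lay as far from 0. TSPAN14 was higher with normo-Migs than with CD147KO-Migs by 0.17 (0.07 to 0.27). CD81 and CD151 were also higher in that comparison, by 0.091 (0.041 to 0.141) and 0.081 (0.030 to 0.132). For hypo-Migs against normo-Migs, TSPAN14, CD81 and CD151 had intervals that barely left out 0. Their values were -0.097 (-0.188 to -0.006), -0.055 (-0.104 to -0.007) and -0.057 (-0.106 to -0.008). For TSPAN6, TSPAN9, TSPAN15 and CD9, all 3 intervals included 0, reaching for example from -0.23 to 0.11 for TSPAN9 between hypo-Migs and normo-Migs and from -0.08 to 0.24 for TSPAN15 between normo-Migs and CD147KO-Migs.

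**Figure D4:**
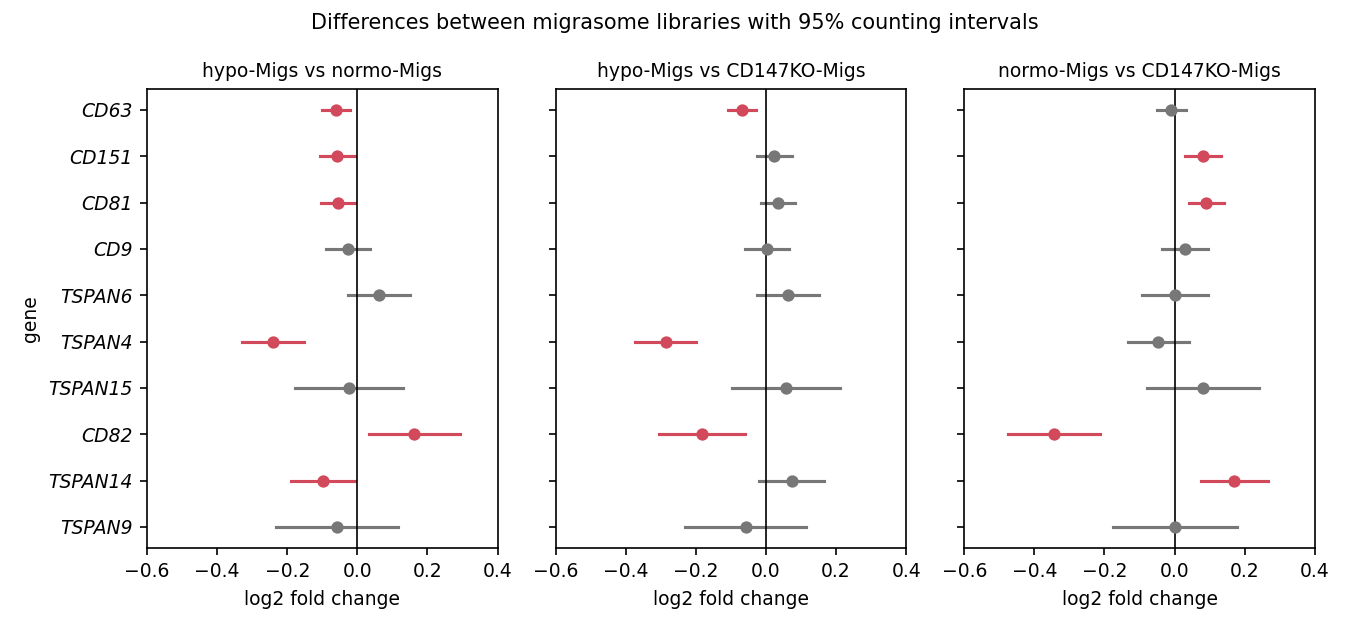
Log2 differences (horizontal) of the 10 genes between the 3 pairs of Mig libraries, with 95% counting intervals as bars, red where the interval leaves out 0 and grey where it includes 0. TSPAN4 lies farthest below 0 in the first pair of panels and CD82 in the last.

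Among the 33 tetraspanin genes as a whole, the 10 accounted for 75.1% of summed FPKM in PBS and for 74.9%, 72.8% and 74.3% in the Mig libraries, while the sum itself was 258 FPKM in PBS and 327, 325 and 326 FPKM in the Mig libraries. The share of CD63 was 25.6% in PBS and 31.1% to 32.5% in the Mig libraries, and that of TSPAN4 was 6.45% in PBS and 2.68% to 3.26% in the Mig libraries. Of the 23 other tetraspanins, 18 were tested, and 6 of these were past 2-fold higher and 2 past 2-fold lower in all 3 Mig libraries. TSPAN18, TSPAN2 and TSPAN5 had 0 reads in PBS, and a floor of 3 reads in that library makes them at least 119-fold, 51-fold and 30.1-fold higher with normo-Migs. They had 352, 151 and 89 reads there, 504, 186 and 116 with hypo-Migs and 416, 158 and 85 with CD147KO-Migs. The other 3 of the 6 were TSPAN3, TSPAN7 and TSPAN33. TSPAN8, a tetraspanin of gastrointestinal tumours, had 1588 reads in PBS and 418, 636 and 405 in the Mig libraries. ROM1, a tetraspanin of photoreceptor discs, had 135 reads in PBS and 42 to 54 in the Mig libraries. Over all genes tested, 14.2% were past 2-fold higher and 7.1% past 2-fold lower in all 3 Mig libraries, as was 1 of the 10, CD82, on the higher side.

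Of 17 tested genes for known tetraspanin partners, 4 (23.5%) were past 2-fold higher in all 3 Mig libraries and 1 (5.88%) was past 2-fold lower. Over all genes tested, these shares were 14.2% and 7.1%. The 4 were EPCAM, TIMP1, IGSF3 and HBEGF. EPCAM, an epithelial adhesion protein found with CD9, had 578 reads in PBS and 1451, 1834 and 1524 in the Mig libraries. TIMP1, a metalloprotease inhibitor that binds CD63, had 3019 reads in PBS and 7818, 9565 and 7489 in the Mig libraries. ITGA6, a laminin-receptor subunit bound by CD151, had 7998 reads in PBS and 3673, 4091 and 3431 in the Mig libraries, with log2 fold changes of -1.10, -1.18 and -1.24, while CD151 itself stayed near PBS. Other integrin subunits of the partner list differed from ITGA6. ITGA3 had log2 fold changes of -0.27, -0.37 and -0.39, whereas ITGB1 had 0.65, 0.57 and 0.52 and ITGB4 had 0.67, 0.56 and 0.51. Of 23 genes of exosome formation, 2 (8.7%, below the 14.2% of all genes tested) were past 2-fold higher in all 3 Mig libraries and none lower. These were RAB31, a GTPase of endosomes with 2550 reads in PBS and 6546 to 8385 in the Mig libraries, and SDC2, a syndecan with 0 reads in PBS and 2181 to 2685 in the Mig libraries. Syntenin (SDCBP) and ALIX (PDCD6IP), the core of the syndecan pathway, had log2 fold changes of -0.08, -0.04 and -0.09 and of -0.54, -0.46 and -0.56, and the median of the 23 genes was -0.08, -0.12 and -0.09. Of 10 genes of migrasome formation, SYT1, a synaptotagmin with 0 reads in PBS and 49, 101 and 55 in the Mig libraries, was past 2-fold higher in all 3. This 1 gene made up 10.0% of the list, again below the 14.2% of all genes tested. The median log2 fold change of these 10 was 0.20, 0.15 and 0.14, and that of all genes tested was 0.03, 0.04 and 0.03. ITGA5 and EOGT, used as migrasome markers, lay below PBS, with log2 fold changes between -0.53 and -0.23 and between -0.39 and -0.33, whereas NDST1 (0.88, 0.87 and 0.95) and PIGK (0.54, 0.49 and 0.51), further migrasome markers, lay above it.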

How the data were processed

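MHCC-97H cells were profiled by RNA-seq, 1 library for each of 4 treatments. The authors deposited raw counts of reads per gene and FPKM, which they scaled by library size and by gene length, the summed length of all annotated exons. The submitters' processing notes name CASAVA 1.8, fastp, HISAT2 2.0.5, featureCounts 1.5.0-p3 and hg38. The labels name a SMARTER mRNA kit, while the study's methods describe poly-T beads and random hexamers. From the deposited counts, log2 fold changes were computed in edgeR 4.0.16 (R 4.3.3) with TMM scaling and a prior count of 2, over 19895 genes that reached 10 reads in any library. A gene was counted as higher or lower at a 2-fold difference. No p-value is given, since no condition had replicates. Intervals are exact (Clopper-Pearson) 95% intervals of read ratios and cover counting error only. No molecular identifiers are named, and where reads are PCR copies the intervals are too narrow even for counting error. With 33882496 to 40285223 reads on genes, a count of 0 allows 3 reads, or 0.0748 to 0.0881 CPM. Similarity of profiles was the Euclidean distance of centred log2 CPM. Scripts were tested on simulated data. All genes matched GENCODE release 29. Named genes were the 10 members, plus overlapping and neighbouring genes. From each list of related genes, those with the largest differences past 2-fold in the same direction in all Mig libraries were named. SDCBP, PDCD6IP, ITGA5, EOGT, NDST1, PIGK, ADAM10, ITGA3, ITGB1, ITGB4 and the TspanC8 group were added as textbook members of their pathways, chosen with their values known. The members and lists were chosen with earlier results of these data known. 1 leukocyte marker is not reported here. Alternatives were other scalings, filters, prior counts, FPKM on a log2(FPKM + pseudocount) scale, protein-coding genes alone and added test criteria.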

Additional observations from a re-analysis of the deposited data

How the results depend on the processing

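The limit of all these values is the single library per condition. No paired analysis was possible because each condition had 1 library and the labels give no replicate numbers, and leaving out a replicate could not be done for the same reason. Scaling by DESeq2 size factors or by total reads, no filter, at least 10 reads in every library, a prior count of 0.25, FPKM with a pseudocount of 1 or 0.1, protein-coding genes alone and edgeR's exact binomial test all left 1 of the 10 genes past 2-fold against PBS. When an adjusted p of 0.05 or less was asked of edgeR's exact test with an assumed coefficient of variation of 0.4, the count was 0 in each comparison with PBS. The count of genes whose interval left out 0 between hypo-Migs and normo-Migs was 3 with scaling by total reads, against 6 with TMM. Of 510 single values of the 10 genes under an alternative, 505 moved by less than their counting interval and 5 by more. A sign changed in 11 of the 510, in values of TSPAN9, TSPAN6 and CD9 that were at most 0.016 from 0 and whose intervals included 0. Of the 5 that moved farther, 3 were CD82 on the log2(FPKM + 1) scale, at 1.25, 1.39 and 1.55 against PBS, and the others were CD63 with scaling by total reads, at 0.64, and TSPAN14 on the log2(FPKM + 1) scale, at 0.28, both for normo-Migs. The scalings shifted the median of all genes by at most 0.039 on the log2 scale.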

Other observations

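TSPAN3, a widely expressed tetraspanin outside the 10 genes, had 549 reads in PBS and 4578, 5785 and 4639 in the normo-Migs, hypo-Migs and CD147KO-Migs libraries, with log2 fold changes against PBS of 3.07, 3.18 and 3.05. Its share of the summed FPKM of all 33 tetraspanins was 0.724% in PBS and 4.73% to 5.16% in the Mig libraries. It was named after its values were seen.

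CPQ, a migrasome-enriched peptidase, was the gene of the migrasome list that differed by 2-fold between Mig libraries, at 26, 72 and 47 reads in the same order of libraries, against 16 in PBS. Its log2 difference between hypo-Migs and normo-Migs was 1.18 (0.57 to 1.94). In that comparison 9.34% of all genes tested differed by 2-fold, so 1 of the 10 genes of this list is near the background. CPQ too was named after its values were seen.

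The processed pseudogene AC005912.1, which lies on the other strand within TSPAN9, had 1035 reads in PBS and 1935, 2422 and 2035 in the Mig libraries, more than TSPAN9 itself in every library. Counts of a pseudogene are uncertain where reads match several near-identical copies, which was not checked here.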
